A study of Mus musculus with 12 samples.

Results

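The 10 genes described here are Chac1, Asns, Trib3, Ddit3, Psat1, Phgdh, Sesn2, Slc7a11, Atf4 and Atf5, which belong to the amino acid branch of the ATF4 stress response. They are 10 of the 19752 genes measured in injured mouse muscle, and each was represented by the only transcript cluster that carries its symbol alone (a cluster is the set of array probes for 1 gene). The set was selected on measured values, since it was drawn up around Chac1, a gene already known to be higher with amphiregulin at day 4. The day 4 difference between treatments is therefore given as a description for these 10 genes, with no test.

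ATF4 is a transcription factor whose protein is made when the initiation factor eIF2alpha is phosphorylated, which happens when amino acids run short or misfolded proteins collect in the endoplasmic reticulum. It switches on enzymes that make amino acids, transporters that import them, and regulators that either restrain or extend the response. Because ATF4 is controlled largely through translation of its mRNA, mRNA levels alone do not report the amount of the protein, and only mRNA was measured here.

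The tissue was the whole tibialis anterior (TA), a shin muscle, from 8 weeks old C57BL/6 mice, injured at day 0 with cardiotoxin, a snake venom toxin that kills muscle fibres. All mice received diphtheria toxin every other day until dissection. In Foxp3-DTR+ mice (DTR+ below), which carry a diphtheria toxin receptor in Foxp3-expressing regulatory T cells, the toxin is meant to remove these cells; Foxp3-DTR- mice (DTR-) lack the receptor and keep them. Mice were given either amphiregulin (AREG), a growth factor of the EGF family, or the saline PBS, once into the muscle at day 0 and then into the abdomen every other day. The groups were DTR- mice with AREG or PBS at day 4, and DTR+ mice with AREG or PBS at day 8, each with 3 arrays, so that day and genotype changed together and cannot be told apart. Whether the 3 arrays of a group are 3 animals is not stated in the labels, and the p-values cover only the spread between arrays, which may be technical.

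The 12 arrays had median intensities of 134 to 143. Mature fibre markers such as Acta1 and Ckm were bright everywhere, their 6 genes summing to 63196 to 72349 intensity units. Foxp3 lay between 6.49 and 6.75 log2 units on all 12 arrays and did not differ between the DTR+ and DTR- arrays (0.02 ± 0.08, SE; limma, adjusted p = 0.915). Its level was below the median of all genes (7.15) on the DTR- arrays too. The depletion is thus not visible in this transcript, which is too dim here to show whether it took place. Genotypes are given as labelled. The number of arrays limits the precision of every value. In whole tissue, fewer cells of a type and less RNA per cell cannot be told apart.

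The sequences shown first are stretches upstream of the start sites of the 5 genes whose windows there hold a match to a short core of the sites that ATF4 and its C/EBP partners are known to bind. They come from RefSeq's table for GRCm38.p6, which had 12 windows for the 10 genes, each from 250 bases before to 50 after a transcription start. The cores searched on both strands were TGATGNAA (the core of the CARE element, with reverse complement TTNCATCA), TGACGNAA (an ATF/CRE-type core) and the variant TGGTGCAA; no run of letters can match more than 1 of them on the same strand, and they were chosen after these promoters had been read. Capitals mark the matches, and each stretch is written 5′ to 3′ on the strand of its gene. Positions count from the transcription start, negative upstream. The Chac1 stretch is chr2:119350992-119351081, plus strand, from -250 to -161. The Asns stretch is chr6:7693210-7693289, minus strand, from -80 to -1. The Trib3 stretch is chr2:152344061-152344140, minus strand, from -80 to -1. The Slc7a11 stretch is chr3:50443639-50443698, minus strand, from -85 to -26. The Psat1 stretch is chr19:15925150-15925229, minus strand, from -170 to -91 of the more upstream of its 2 starts. That start is called start 2 below, since starts are numbered by coordinate.
Chac1: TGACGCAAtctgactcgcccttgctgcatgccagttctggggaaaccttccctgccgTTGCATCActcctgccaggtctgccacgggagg
Asns: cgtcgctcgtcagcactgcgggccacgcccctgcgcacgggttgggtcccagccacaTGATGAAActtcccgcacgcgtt
Trib3: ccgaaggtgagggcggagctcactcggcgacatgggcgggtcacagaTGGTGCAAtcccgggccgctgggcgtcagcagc
Slc7a11: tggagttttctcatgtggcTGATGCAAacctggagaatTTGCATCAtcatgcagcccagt
Psat1: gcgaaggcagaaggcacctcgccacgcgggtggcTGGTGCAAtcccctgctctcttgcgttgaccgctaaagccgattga

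Chac1 holds the ATF/CRE-type core at -250 to -243 and the CARE core, on the opposite strand, at -193 to -186. Asns holds 1 CARE core, at -23 to -16. In Slc7a11 the CARE core occurs at -66 to -59 and, turned around, at -47 to -40. Trib3 holds the variant at -33 to -26 and a CARE core just inside the transcript, at 15 to 22. Psat1 has the variant at -136 to -129. In all, 4 of the 12 windows, from 4 of the 10 genes, matched the CARE core, Trib3 only downstream of its start. Of the 32851 windows of the table, 4.0% hold the CARE core, 1.6% the ATF/CRE-type core and 0.5% the variant. Since the cores were chosen after these promoters had been read, the shares are no test of enrichment. The windows of Ddit3, Phgdh, Sesn2, Atf4 and Atf5 and the other Psat1 start held none of these letters.

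**Figure D1:**
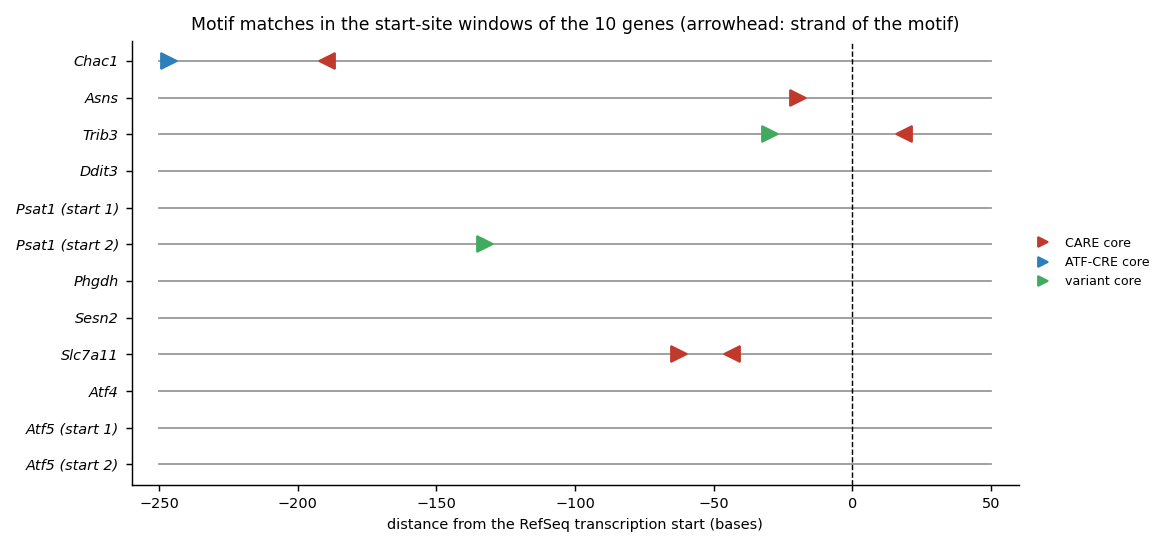
Matches of the 3 motif cores in the 12 start-site windows of the 10 genes, by distance in bases from the RefSeq transcription start (dashed line); arrowheads point right where the motif lies on the strand of the gene. The matches sit in Chac1, Asns, Trib3, Slc7a11 and the second start of Psat1, and the other 7 windows are empty.

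The 10 genes did not move as 1 block. At day 4, Chac1 was higher with AREG than with PBS on every array, while Asns and Psat1 were lower with AREG on every array. Atf4, Trib3, Sesn2 and Phgdh differed by 0.13 log2 units or less. At day 8 no gene of the set passed the test between treatments, but Asns and Psat1 again lay lower on every AREG array. Asns and Psat1 also fell from the day 4 DTR- to the day 8 DTR+ arrays, with adjusted p-values of 0.000295 and 0.0263 (limma).

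**Figure D2:**
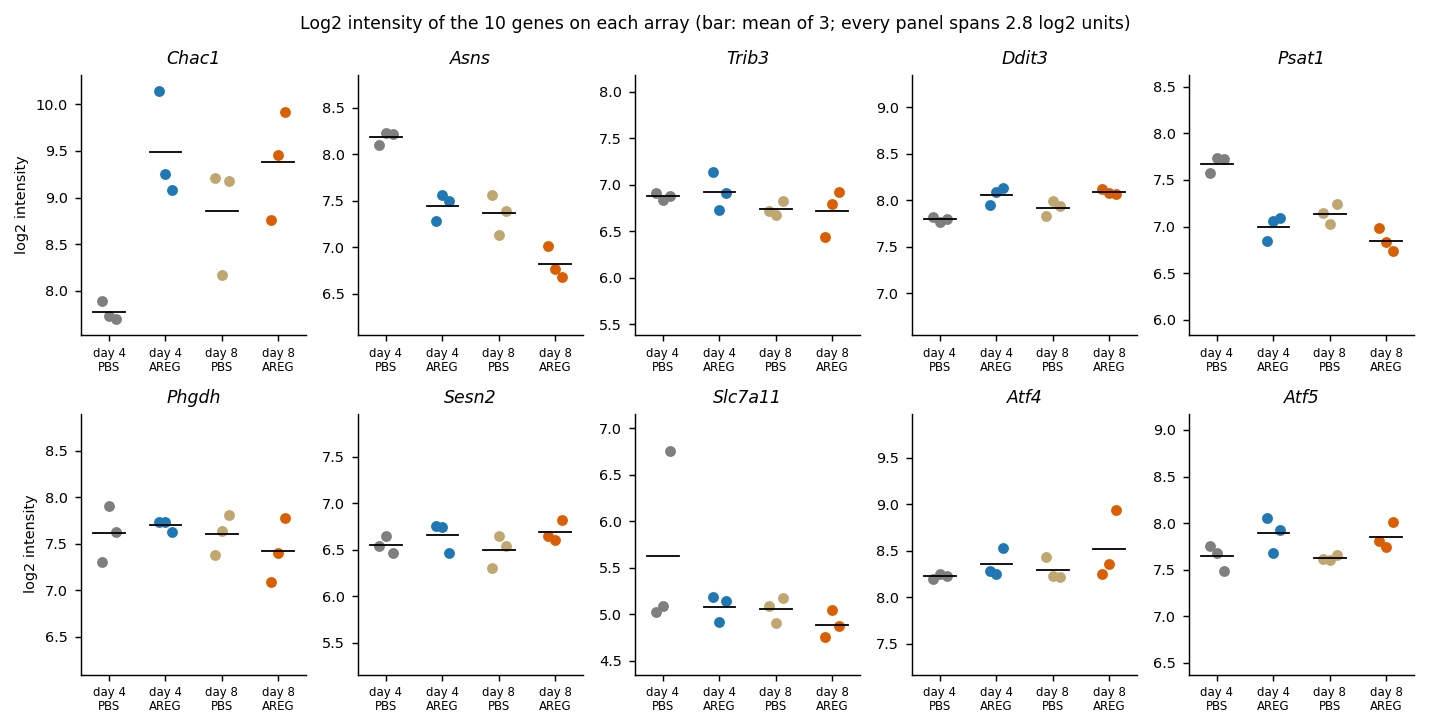
Log2 intensity of each of the 10 genes on the 12 arrays, by group (points: arrays; bars: means of 3; each panel spans the same range in log2 units). Chac1 is lowest in the day 4 PBS group, Asns and Psat1 are highest there, and Slc7a11 has 1 day 4 PBS array far above the rest.

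Chac1 encodes a gamma-glutamylcyclotransferase that breaks down glutathione, and it is a known target of the ATF4, ATF3 and CHOP cascade. Its log2 intensity was 10.14, 9.25 and 9.08 on the AREG arrays of day 4 and 7.89, 7.73 and 7.70 on the PBS arrays of that day. The groups did not overlap, and the difference was 1.72 ± 0.32 log2 units (SE, n = 3 against 3), a 3.29-fold higher level with AREG. The AREG arrays spread far more (SD 0.57) than the PBS arrays (SD 0.10), with replicate 1 highest. At day 8 the AREG arrays read 8.76, 9.46 and 9.92 and the PBS arrays 9.22, 8.17 and 9.18. These groups overlapped, and the difference of 0.53 ± 0.32 did not pass the test (limma, adjusted p = 0.741), with a 95% interval from -0.15 to 1.20. It was 0.84 without AREG replicate 1, 0.26 without AREG replicate 3 and 0.19 without PBS replicate 2. The group means in order were 9.49 ± 0.57 (SD, n = 3) in day 4 AREG, 9.38 ± 0.59 in day 8 AREG, 8.85 ± 0.595 in day 8 PBS, and 7.77 ± 0.10 in day 4 PBS, and only the last stood clear of its neighbour. Within PBS, Chac1 was 1.08 log2 units higher at day 8 than at day 4, and within AREG the same difference was -0.11; these share arrays with the treatment differences and are given only as values. Over both treatments the day 8 DTR+ arrays lay 0.49 ± 0.22 higher than the day 4 DTR- arrays, which did not pass (adjusted p = 0.291). That comparison passed only when arrays were weighted by quality (0.75; limma, adjusted p = 0.00113). Under those weights day 4 AREG replicate 3 (weight 5.52) and day 8 AREG replicate 2 (weight 7.43) dominated their groups.

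Asns encodes asparagine synthetase, the enzyme that makes asparagine and a classical ATF4 target. On day 4 it read 7.28, 7.56 and 7.50 with AREG and 8.10, 8.23 and 8.21 with PBS. Every AREG array was below every PBS array, by -0.73 ± 0.13 log2 units on average. On day 8 it read 7.02, 6.77 and 6.68 with AREG and 7.57, 7.14 and 7.40 with PBS, again with no overlap. The day 8 difference was -0.54 ± 0.13, with a 95% interval from -0.83 to -0.26, and missed the threshold over all genes (limma, adjusted p = 0.599; unadjusted p = 0.001). Asns fell by 0.72 ± 0.09 log2 units from day 4 DTR- to day 8 DTR+ (adjusted p = 0.000295), and it was lower both within PBS (-0.82) and within AREG (-0.63). Group means ran from 8.18 ± 0.07 (SD, n = 3) in day 4 PBS through 7.45 ± 0.15 in day 4 AREG and 7.37 ± 0.22 in day 8 PBS, whose arrays overlapped, to 6.82 ± 0.17 in day 8 AREG.

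Psat1 encodes phosphoserine aminotransferase, which acts in the middle of serine synthesis. It read 6.85, 7.06 and 7.09 with AREG and 7.57, 7.73 and 7.73 with PBS at day 4, a difference of -0.68 ± 0.11 with no overlap. At day 8 it read 6.98, 6.84 and 6.73 with AREG and 7.15, 7.03 and 7.24 with PBS, so that the AREG arrays were again all lower. This difference of -0.29 ± 0.11 did not pass (limma, adjusted p = 0.64; 95% interval from -0.53 to -0.04). Psat1 fell by 0.34 ± 0.08 from day 4 DTR- to day 8 DTR+ (adjusted p = 0.0263). The values behind this were -0.54 within PBS and -0.15 within AREG. The call was lost with repeated quantile normalisation (adjusted p = 0.0545) and without any of 7 single arrays: day 4 AREG replicate 2 or 3, day 4 PBS replicate 2 or 3, day 8 AREG replicate 2, and day 8 PBS replicate 1 or 2. The highest adjusted p among these was 0.084.

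Phgdh, the first enzyme of the same serine pathway, did not share the pattern of Psat1. Its values were 7.73, 7.74 and 7.63 with AREG and 7.31, 7.90 and 7.62 with PBS at day 4. At day 8 they were 7.09, 7.40 and 7.78 with AREG and 7.38, 7.64 and 7.81 with PBS. The groups overlapped on both days, with differences of 0.09 ± 0.18 at day 4 and -0.19 ± 0.18 at day 8 (limma, adjusted p = 0.826). The change from day 4 DTR- to day 8 DTR+ was -0.14 ± 0.12 (adjusted p = 0.575). Phgdh also had 1 cluster shared with another symbol, which was not used.

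Atf4 itself read 8.28, 8.25 and 8.53 with AREG and 8.20, 8.25 and 8.23 with PBS at day 4. The AREG arrays were all higher, by 0.13 ± 0.16, with the 2 nearest arrays almost level. At day 8 it read 8.24, 8.36 and 8.94 with AREG and 8.43, 8.22 and 8.21 with PBS, which overlapped (0.23 ± 0.16; limma, adjusted p = 0.771). The day 8 AREG array with the highest Atf4 was replicate 3, which also had the highest Chac1 of that group. Without it the day 8 Atf4 difference was 0.01, and without AREG replicate 1 it was 0.36. In day 8 PBS, replicate 1 was highest for both genes. The day 4 groups did not share this: in AREG, replicate 3 had the highest Atf4 (8.53) and the lowest Chac1 (9.08). In day 4 PBS, Atf4 was highest on replicate 2 and Chac1 on replicate 1. Atf5, a related factor controlled in a similar way, read 8.06, 7.68 and 7.93 with AREG and 7.75, 7.68 and 7.49 with PBS at day 4, a difference of 0.25 ± 0.12 with overlap. At day 8 it read 7.81, 7.75 and 8.01 with AREG and 7.62, 7.61 and 7.66 with PBS. The AREG arrays were then all higher, but the 0.23 ± 0.12 did not pass (adjusted p = 0.703).

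Ddit3 encodes CHOP, a factor induced downstream of ATF4 that promotes cell death when stress persists. It was the steadiest gene of the set, with 12 arrays between 7.77 and 8.13. At day 4 it read 7.95, 8.09 and 8.13 with AREG and 7.83, 7.77 and 7.79 with PBS, 0.26 ± 0.10 higher and without overlap. At day 8 it read 8.12, 8.08 and 8.07 with AREG and 7.83, 8.00 and 7.93 with PBS, again without overlap (0.17 ± 0.10; limma, adjusted p = 0.736). Trib3, a pseudokinase that CHOP and ATF4 induce and that feeds back on ATF4, read 7.13, 6.73 and 6.91 with AREG and 6.92, 6.84 and 6.88 with PBS at day 4. It read 6.44, 6.80 and 6.93 with AREG and 6.72, 6.68 and 6.83 with PBS at day 8. Its differences were 0.04 ± 0.14 and -0.02 ± 0.14 (adjusted p = 0.98), and the groups overlapped at both days.

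Sesn2 encodes sestrin 2, a leucine-binding inhibitor of mTORC1 signalling. Its 12 arrays lay between 6.30 and 6.82, with differences of 0.11 ± 0.13 at day 4 and 0.19 ± 0.13 at day 8 (limma, adjusted p = 0.754), the groups overlapping on both days. Under array quality weights the day 4 value turned to -0.07. Slc7a11, the light chain of the cystine and glutamate exchanger that feeds glutathione synthesis, was the dimmest cluster of the set. It read 5.19, 4.92 and 5.14 with AREG and 5.03, 5.09 and 6.75 with PBS at day 4, and 4.76 to 5.18 on all day 8 arrays. The day 4 difference of -0.54 ± 0.31 became 0.02 without PBS replicate 3, so the value was set by that array. At day 8 the difference was -0.17 ± 0.31 (adjusted p = 0.926). With Trib3, these 2 genes had mean levels below the median of all genes, which was 7.15 log2 units.

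Against all genes, 573 of 19752 passed the limma test between AREG and PBS at day 4, 156 higher (0.79% of genes) and 417 lower (2.11%). Since day 4 values chose the set, no call of the 10 genes in this comparison is given. The day 4 arrays of replicates 1 and 3 deviated together under their number. When the replicate number was added as a block, 914 genes passed, 305 higher and 609 lower. With repeated quantile normalisation 324 were higher and 508 lower. Without day 4 AREG replicate 1, AREG replicate 3 or PBS replicate 2, only 15, 9 and 9 genes passed. Arrays did not overlap at day 4 for 3 members higher with AREG (Chac1, Ddit3, Atf4) and 2 lower (Asns, Psat1), where 10.2% of all genes were wholly higher and 12% wholly lower. The median member difference was 0.10, against 0.04 over all genes.

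At day 8, 1 gene passed among 19752, with 0% higher and 0.00506% lower, and 0 of the 10 members. At an unadjusted p under 0.05 the same limma fit gave 1506 genes, with Asns and Psat1 the 2 of the set. With array quality weights in limma, Asns (-0.62, adjusted p = 0.00793) and Psat1 (-0.31, adjusted p = 0.0343) passed as lower with AREG, among 1192 genes. The weights of day 8 AREG replicates 1 to 3 were 0.583, 7.43 and 0.321, so replicate 2 dominated that group. No other alternative gave a member call there. Wholly higher with AREG were Ddit3 and Atf5 and wholly lower Asns and Psat1, against 7.06% and 7.14% of all genes. Members' median difference was 0.08, against 0.01 over all genes. The AREG difference was not shown to change between the days for any gene: 0 of 19752 passed limma's interaction test (1160 at an unadjusted p under 0.05), and 2232 passed with array quality weights. For Chac1 the day 8 value less the day 4 value was -1.19 ± 0.45, which rests on the day 4 value that chose it.

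From day 4 DTR- to day 8 DTR+, averaged over both treatments, 353 genes rose (1.79%) and 355 fell (1.8%), and when arrays were centred on their medians 416 rose and 272 fell. This contrast does not use the difference between treatments. Of the 10 genes, 2 fell (Asns and Psat1) and 0 rose, and 8 did not pass. The smallest adjusted p among those 8 was that of Chac1, and the values of Atf4 (0.11 ± 0.11), Ddit3 (0.08 ± 0.07), Atf5 (-0.03 ± 0.09) and Sesn2 (-0.01 ± 0.09) were all near 0. Trib3 (-0.17 ± 0.10, adjusted p = 0.381) and Slc7a11 (-0.38 ± 0.22, adjusted p = 0.394) were lower without passing, and the Slc7a11 value was -0.10 without day 4 PBS replicate 3. Without day 8 AREG replicate 3 the value of Atf4 was 0.004. Asns passed in every one of the 20 alternatives, with adjusted p-values up to 0.00171.

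**Figure D3:**
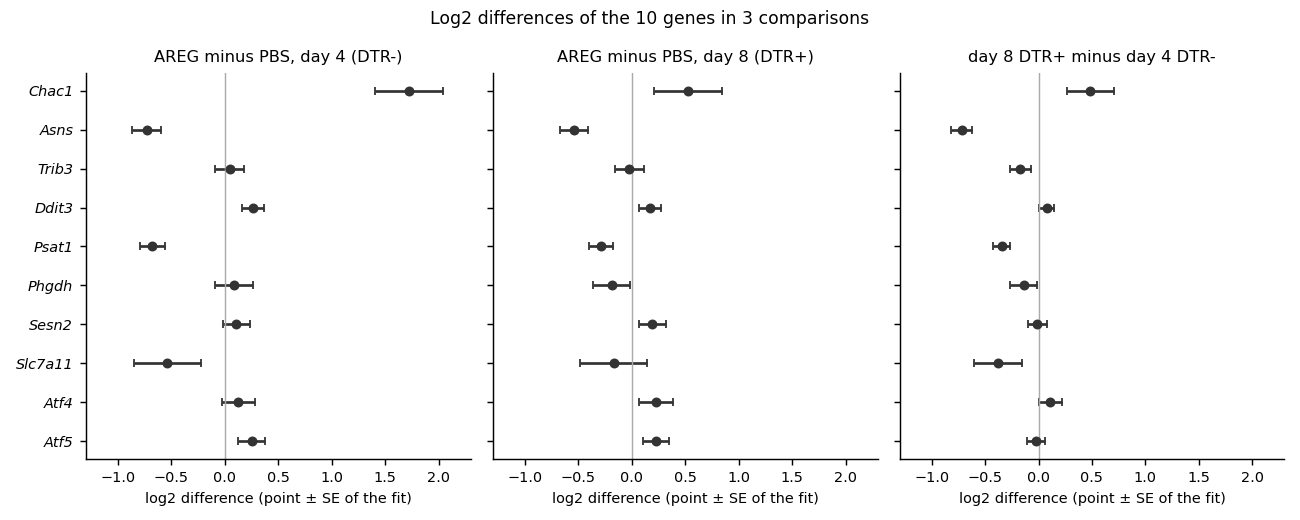
Log2 differences of the 10 genes with the SE of the limma fit, for the treatments compared at days 4 and 8 (AREG less PBS) and for day 8 DTR+ against day 4 DTR- over both treatments. Chac1 lies to the right at day 4 (1.72), Asns and Psat1 lie left of 0 in all 3 panels, and the other genes cluster near 0 apart from Slc7a11.

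Other genes of the pathway were read from lists chosen with earlier results of these data known. Among 13 measured genes of amino acid and one-carbon synthesis, 0 rose and 1 fell with AREG at day 4, Aldh18a1, the enzyme that starts proline synthesis. It lay at 7.65 to 7.98 with AREG and 8.19 to 8.55 with PBS, -0.61 ± 0.14 (limma, adjusted p = 0.039). Its day 8 difference was -0.40 ± 0.14, all AREG arrays lower, without passing (adjusted p = 0.63). Aldh18a1 fell from day 4 DTR- to day 8 DTR+ (-0.46 ± 0.10, adjusted p = 0.0194), and so did Aldh1l2, a mitochondrial folate enzyme (-0.43 ± 0.09, adjusted p = 0.014). Mthfd2, another mitochondrial folate enzyme and ATF4 target, was -0.54 ± 0.18 at day 4 without passing (adjusted p = 0.121). Gpt2 went the other way there, 0.69 ± 0.20 with every AREG array higher, and did not pass either (adjusted p = 0.0719). Of the 13 day 4 values, 9 were positive and 4 negative. Psph, the last enzyme of serine synthesis, was 0.09 ± 0.10 at day 4 and -0.04 ± 0.10 at day 8 and did not pass. The list's median was 0.09 at day 4, above the 0.04 of all genes, and -0.04 at day 8.

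Of 13 amino acid transporters, 2 fell with AREG at day 4. Slc7a5, the light chain of the leucine transporter LAT1, lay at 8.09 to 8.33 with AREG and 8.84 to 9.48 with PBS (-0.91 ± 0.15; limma, adjusted p = 0.0193). Slc38a1, a glutamine transporter, differed by -1.02 ± 0.22 (adjusted p = 0.0314). None rose, and the list's median was -0.15. At day 8 limma called 0 of 13. The 3 smallest unadjusted p-values there, all under 0.05, were those of Slc38a1 (-0.55 ± 0.22), of Slc3a2, the heavy chain that pairs with Slc7a5 and Slc7a11 (-0.33 ± 0.15), and of the glutamine transporter Slc1a5 (-0.24). From day 4 DTR- to day 8 DTR+, Slc1a4 (-0.43 ± 0.08, adjusted p = 0.00487) and Slc7a5 (-0.44 ± 0.11, adjusted p = 0.0332) fell. The list of aminoacyl-tRNA synthetases, which load amino acids onto tRNA, held 19 measured genes, the tRNA export receptor Xpot among them. It gave 0 calls at day 4 or day 8, with medians of 0.00 and -0.03. Wars, the tryptophan enzyme, also induced by interferon, rose from day 4 DTR- to day 8 DTR+ (0.63 ± 0.13, adjusted p = 0.0106).

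Among 22 other ATF4 targets and partners, 2 rose and 1 fell with AREG at day 4. Vldlr, a lipoprotein receptor (0.86 ± 0.21; limma, adjusted p = 0.0446), and Vegfa, an angiogenic growth factor (0.56 ± 0.12, adjusted p = 0.0324), rose. Atf3, a factor that joins ATF4 and CHOP upstream of Chac1, fell: it lay at 7.95 to 8.13 with AREG and 8.46 to 9.01 with PBS (-0.77 ± 0.15, adjusted p = 0.0218). At day 8 0 passed, while 16 of 22 values were positive, with a median of 0.15. Eif4ebp1, an inhibitor of translation initiation, had the smallest p there (0.62 ± 0.21, adjusted p = 0.617). Its day 8 AREG arrays spread from 9.70 to 10.87.

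Upstream of ATF4, 1 of 9 measured genes for eIF2alpha kinases and their regulators passed at day 4, Dele1, which carries mitochondrial stress to the kinase HRI (0.53 ± 0.13; limma, adjusted p = 0.0387), and 0 passed in the other comparisons. The amino acid sensing kinase Eif2ak4 (GCN2) was 0.01 ± 0.13 at day 4, with its groups overlapping. In the other branches of the endoplasmic reticulum stress response, 16 of 17 genes of the IRE1-XBP1 and ATF6 branches (Ern1, Xbp1 and Atf6 themselves and targets) were negative at day 4 and the median was -0.31, but only Edem1, which helps to discard misfolded proteins, fell (-0.85 ± 0.16, adjusted p = 0.0218). The chaperone Hspa5 was -0.36 ± 0.12 (adjusted p = 0.12) and the disulphide isomerase Pdia4 -0.73 ± 0.20 (adjusted p = 0.0639). The 1 positive gene was Dnajb9, 0.44 ± 0.16 with every AREG array higher, which did not pass (adjusted p = 0.171).

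Glutathione metabolism, to which Chac1 belongs by function, gave 1 gene of 14 that fell at day 4, Anpep, an aminopeptidase of the cell surface that macrophages also carry (-1.02 ± 0.22; limma, adjusted p = 0.0297), and 0 that rose. Gclc, which makes the rate-limiting step of glutathione synthesis, was 0.09 ± 0.14 there. Without passing, Oplah lay wholly higher with AREG (8.18 to 8.37 against 7.64 to 8.01 with PBS) and Gpx1 wholly lower (9.486 to 9.73 against 9.999 to 10.305). Of the 14 day 4 values, 8 were positive and 6 negative. From day 4 DTR- to day 8 DTR+ Dpep1, a dipeptidase acting on glutathione products, rose (0.59 ± 0.10, adjusted p = 0.00265). A list around the oxidative stress factor NRF2, which also controls Slc7a11, held 10 measured genes: NRF2's own gene Nfe2l2, its inhibitor Keap1 and targets. Of these, 1 fell at day 4: Hmox1, the haem-degrading enzyme abundant in macrophages (-0.95 ± 0.13, adjusted p = 0.00934). The other 9 did not pass, and the list's median was 0.18, with 6 values positive and 4 negative. Among those 9, Me1 lay wholly higher with AREG (10.84 to 11.04 against 9.65 to 10.37 with PBS). Gstm1 had means of 10.81 with AREG and 10.16 with PBS, with overlap.

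Of 7 close relatives of the members, Chac2, the second glutathione cyclotransferase, was the only one to pass, rising with AREG at day 4 (0.59 ± 0.14; limma, adjusted p = 0.0418). It lay at 8.57 to 8.94 with AREG and 7.93 to 8.49 with PBS. At day 8 its AREG arrays were all lower, by -0.22 ± 0.14, which did not pass (adjusted p = 0.754).

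**Figure D4:**
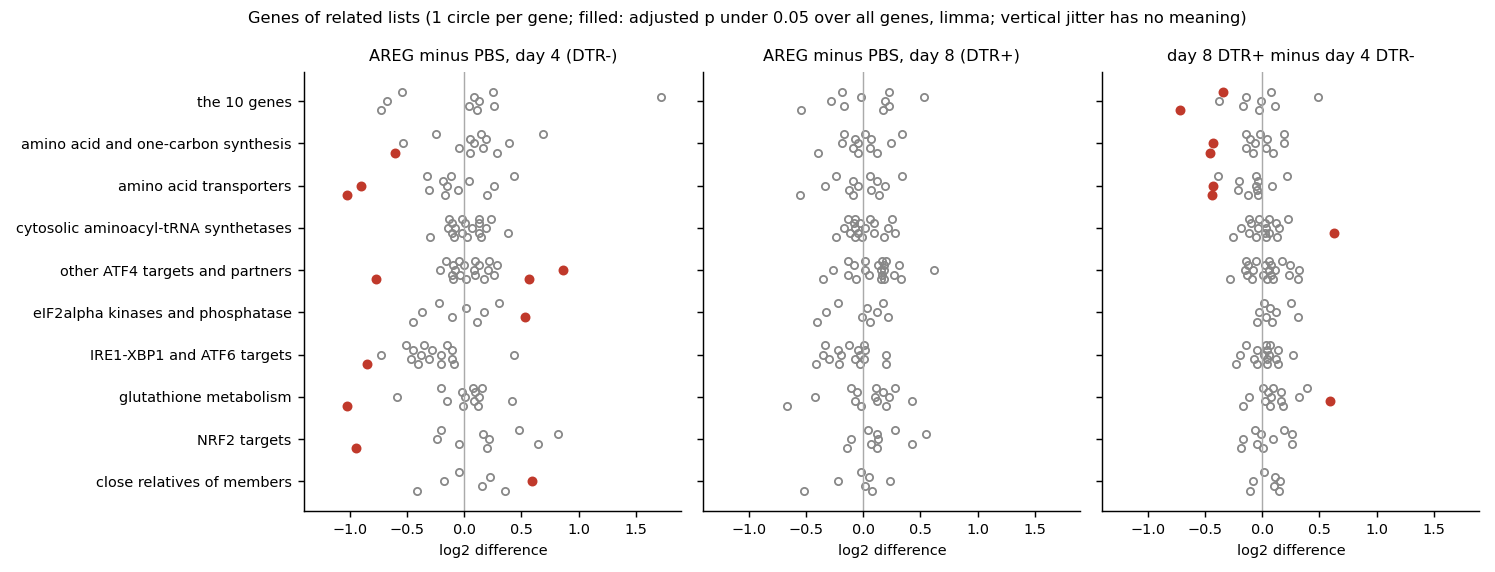
Log2 differences of single genes in the 10-gene set and in 9 related lists, in 3 comparisons; 1 circle is 1 gene, filled where limma's adjusted p over all genes was under 0.05, and the set's own day 4 circles are not filled since no test is given for them. Filled circles are few in every list, and most circles of the IRE1-XBP1 and ATF6 row lie left of 0 at day 4.

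Several cell type marker lists moved in the same comparisons, and their part in the differences of the 10 genes was not tested. With AREG at day 4, 5 of 7 regenerating fibre markers fell, among them Myog and Mymk; their summed intensity was 5293 to 8377 with AREG and 10754 to 16987 with PBS. Of 8 macrophage markers 6 fell, Cd68 by 1.42 ± 0.28 log2 units (limma, adjusted p = 0.0251), and the sum was 2758 to 3734 against 6045 to 8581. Of 5 dividing cell markers 3 fell, with sums of 483 to 604 against 946 to 1284, and of 6 fibroblast markers 2 fell, with sums of 8706 to 12443 against 17715 to 22797. Of 5 adipocyte markers 3 rose, with sums of 1656 to 2174 against 1030 to 1337. No marker of mature fibres, endothelium, T cells or neutrophils passed at day 4, and none of the 5 neutrophil markers reached the median level of all genes. No defining marker was at 0, since array values are never 0.

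At day 8 0 markers of any list passed between treatments, although every marker of 4 lists had a negative difference. These were the 7 regenerating fibre markers (median -0.48, sums of 2443 to 4675 with AREG against 5060 to 5268 with PBS), the 8 macrophage markers (-0.53, 2365 to 6248 against 5039 to 7903), the 6 fibroblast markers (-0.74, 3396 to 10268 against 10127 to 11855) and the 5 dividing cell markers (-0.13, 429 to 830 against 685 to 888). Within the day 8 AREG group, macrophage sums were 6248, 4433 and 2365 on replicates 1 to 3, and regenerating fibre sums 4675, 4069 and 2443, while Asns was 7.02, 6.77 and 6.68 and Chac1 8.76, 9.46 and 9.92. Replicate 3 was thus lowest for both marker lists and for Asns and highest for Chac1. The other groups did not share this order for Chac1. In day 8 PBS, macrophage sums were 5424, 5039 and 7903 and Chac1 9.22, 8.17 and 9.18, so replicate 2 was lowest for both. In day 4 AREG, replicate 3 was lowest for both marker lists and for Chac1. In day 4 PBS, replicate 1 had the lowest macrophage sum and the highest Chac1, but not the lowest regenerating fibre sum. Asns was lowest on the array with the lowest macrophage sum in day 8 PBS (replicate 2, 7.14) and day 4 PBS (replicate 1, 8.10). In day 4 AREG it was lowest on replicate 1 (7.28), not on replicate 3. From day 4 DTR- to day 8 DTR+, 6 of 7 regenerating fibre and 3 of 6 fibroblast markers fell and 3 of 5 T cell markers rose, and 0 of 8 macrophage markers passed.

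The genes whose profile over the 12 arrays was most like that of Chac1 were sought among non-members. Every member lay farther from Chac1 than those named below. Likeness was the mean absolute difference between log2 profiles, each centred on its own mean, over the 9869 non-member genes that reached the median brightness. It includes the day 4 values that chose Chac1. It also depends on the size of changes, so a gene that varied little cannot lie close to Chac1, whatever its pattern. The closest were Inmt (0.33), a methyltransferase, Cish (0.34), a feedback inhibitor of cytokine signalling, Adhfe1 (0.36), a mitochondrial dehydrogenase, Lncpint (0.38), a long non-coding RNA, and Cdc14a (0.39), a phosphatase. The median gene lay at 0.685. Among the members, Atf4 (0.59), Atf5 (0.62) and Ddit3 (0.64) were the nearest to Chac1, Trib3 (0.677), Sesn2 (0.682) and Phgdh (0.691) lay at about the median, and Psat1 (0.90) and Asns (0.98) were the farthest.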

How the data were processed

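RNA of whole muscle was labelled and measured on Mouse Gene 1.0 ST arrays (Affymetrix), per the labels' protocols. The authors ran RMA, per the submitters' processing notes, and these also name Affymetrix Power Tools. RMA as usually run subtracts background, gives all arrays the same distribution and sums up probes per cluster. The deposited arrays did not share the same distribution. Their medians were 134 to 143, and the interquartile ranges of their log2 values were 2.19 to 2.72. The build, annotation and versions used are not given in the sources used for this work. RMA can compress the differences of dim genes, Slc7a11 among them. The deposited values are intensities on a linear scale, from 4.65 to 21512.5 over 24922 clusters and 12 arrays, with 0 missing.

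Values were taken to log2 with a pseudocount of 0 and no filter. Clusters with 1 symbol (21425) were kept, and for 921 genes with several clusters the one with the highest mean was used, which left 19752 genes. Entrez numbers of 21347 clusters matched the RefSeq GRCm38.p6 table, with 0 symbols changed. Promoter sequences and their coordinates came from RefSeq's GRCm38.p6 table, and no coordinates are given for the array clusters.

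The 4 group means of every gene were estimated over the 12 arrays by lmFit and eBayes of limma 3.58.1 (R 4.3.3), with 8 residual degrees of freedom and 7.1 from the prior. A gene was called where its two-sided p, adjusted by the Benjamini-Hochberg method over the 19752 genes, was below 0.05. SE are those of the fit. An exact permutation test was not used for single genes. Described without a test were the members' day 4 and interaction values and the differences within 1 treatment.

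Same-numbered day 4 arrays deviated together for replicates 1 and 3 (residual correlations 0.558 and 0.511). For replicate 2 the correlation was 0.201, below the 0.27 of AREG replicate 2 with PBS replicate 3. Between different numbers the day 4 values ran from -0.486 to 0.27. Same-numbered day 8 arrays did not deviate together (-0.198, 0.123 and -0.003). Each group was centred on its own mean, so these correlations depend on each other. The alternatives were the replicate block, each day alone, trended and robust eBayes, array quality weights, a level filter, quantile normalisation, median centring, a pseudocount of 32, averaged clusters and leaving out each array.

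The members and all gene lists were chosen with earlier results of these data known. Named were all members, the 5 genes most like Chac1, Foxp3 and some markers. Most list genes given with values came from the up to 3 of each list with the smallest p per comparison. Not all of those are named, and of the close relatives only Chac2 is. Gene examples such as Psph, Gclc, Hspa5 and Eif2ak4 were added for their role after their values were seen. Listed genes with no cluster of their own, such as Pycr1, Aars and Gdf15, were not analysed here.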

Additional observations from a re-analysis of the deposited data

Results flagged for a closer look

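Chac2, the relative of Chac1, was singled out because its AREG arrays were all above the PBS arrays at day 4 and all below them at day 8. The AREG difference at day 8 less that at day 4 was -0.81 log2 units, and limma's interaction test did not pass (adjusted p = 0.557). It was the only gene wholly higher at 1 day and wholly lower at the other among 69 members and named genes looked at. Over all genes, 10.2% were wholly higher and 12% wholly lower with AREG at day 4. At day 8 these shares were 7.06% and 7.14%, and the share with opposite directions was not counted. The smallest interaction p over all genes was 0.426 after adjustment (limma).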

How the results depend on the processing

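The 10 genes' differences were recomputed under 21 alternatives, 611 values in all, and the sign turned in 22 of them. The day 4 count of 573 genes was 938 with the 6 arrays of that day alone, 914 with the replicate block, 5305 with array quality weights and 358 with the pseudocount of 32, and lay between 9 and 1336 when 1 array was left out. The day 8 count of 1 was 1192 with array quality weights, 0 in the others apart from those with an array left out, and 0 to 1 in these. The DTR+ day 8 against DTR- day 4 count of 708 was 3959 with array quality weights and 449 (without day 4 PBS replicate 2) to 1018 with an array left out, and the interaction count of 0 was 2232 with array quality weights.

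Array quality weights ranged from 0.167 to 7.43, and the cause of their effect was not tested. They were 0.167, 0.936 and 5.52 on day 4 AREG replicates 1 to 3, and 0.583, 7.43 and 0.321 on those of day 8 AREG. Weighted values of each AREG group thus rested mostly on 1 array. The sign turned at day 4 for Phgdh (-0.094 with array weights, -0.066 without PBS replicate 1), Trib3 (-0.061 without AREG replicate 1), Sesn2 (-0.072 with array weights) and Slc7a11 (0.023 without PBS replicate 3). The others were Trib3 at day 8 (0.029 with array weights and with median centring; -0.124 to 0.121 with an array left out), and, between day 8 DTR+ and day 4 DTR-, Sesn2 (0.06 with quantile normalisation, 0.022 with median centring; -0.058 to 0.039 with an array left out), Atf4 (-0.024 with array weights) and Atf5 (0.007 with median centring; -0.078 to 0.017 with an array left out). In the 2 comparisons in which members were tested, the replicate block changed no member's call. Chac1 at day 4 ranged from 1.38 to 1.93 and Asns from -0.79 to -0.64.

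Dim clusters limit Slc7a11, Sesn2 and Trib3, whose means lie below the median gene, and 3 arrays a group limit every p.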
